A study of Mus musculus with 3 samples.

Results

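Immediate early genes are the first genes that a stimulated cell transcribes, within minutes and without new protein synthesis, from promoters kept ready for the kinase cascades that reach serum response factor and CREB. Their products are transcription factors (the AP-1 subunits of the Fos and Jun families, Egr1, Atf3 and the orphan nuclear receptors of the Nr4a family), together with feedback inhibitors such as the MAP kinase phosphatase Dusp1. They are known as markers of recent signaling in neurons and endocrine cells, and also as genes that tissue dissociation can induce. The 10 genes described here, Fos, Fosb, Jun, Junb, Egr1, Atf3, Ier2, Dusp1, Nr4a1 and Nr4a2, were a list taken by name out of 24136 gene symbols, and all 10 were found in the files and measured in each library.

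They were compared in C57BL/6 mice, in epithelial cells of the upper part of the small intestine sorted by flow cytometry into 3 populations with 1 pooled library each. GIP-GFP cells, labelled as GIP-expressing, were sorted by a GFP reporter, and neither the sex of these mice nor a CD45 gate is given for them in the sources used here. Ngn3-TOMATO cells came from Ngn3-Cre mice crossed with a ROSA26-LoxP-STOP-LoxP-tomato indicator, so that the tomato label marks every descendant of a progenitor that expressed the Cre under Neurogenin 3 control. Ngn3-negative cells lacked that label, and both tomato sorts used male mice and cells negative for the leukocyte protein CD45. All 3 went through the same EDTA and collagenase dispersal and were sorted directly afterwards, per the labels' protocols. Ages, numbers of mice and the time each sort took are likewise not given.

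Values are transcript abundances per length (FPKM as deposited, summed per symbol and divided by 1 common number, called scaled FPKM), with the deposited limits in parentheses. Read bases per library came to between 592.1 and 1380 Mb, and mean coverage of the leading transcript of each of the 10 genes ran from 2.33 to 1349 reads per base. With 1 library per group there is no replicate and no test between groups. The 95% intervals of log2 ratios therefore cover counting error only and say nothing of the spread between animals. In pooled sorts, fewer cells of a type and less RNA per cell cannot be told apart.

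The enteroendocrine label held by its markers, but neither reporter library held enteroendocrine transcripts alone. The sum of 10 enteroendocrine markers was 19100 scaled FPKM for GIP-GFP, 25430 for Ngn3-TOMATO and 407.2 for Ngn3-negative. Ngn3-TOMATO also held the most goblet cell transcripts: 171900 over 7 markers against 5387 for GIP-GFP and 31090 for Ngn3-negative. It likewise held the most Paneth cell transcripts, 27040 over 6 markers against 2285 and 4795. Enterocyte transcripts over 8 markers came to 11880 for GIP-GFP, 8118 for Ngn3-TOMATO and 42750 for Ngn3-negative. Markers of T cells and intraepithelial lymphocytes came to 340.3 for GIP-GFP, 143.6 for Ngn3-negative and 56.18 for Ngn3-TOMATO, where Trac was listed at 0. The myeloid sum was between 14.51 and 23.06, and the fibroblast and endothelium sum between 1.932 and 10.88, with Cdh5 and Kdr listed at 0 in both reporter libraries. The part of these cells in the values below was not tested.

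Promoter sequences from RefSeq (GRCm38.p6, the genome of the mm10 files) were examined for 8 of the 10 genes, all but Egr1 and Ier2. They are shown for 4 genes that mark the range of the results: Fos, the most abundant of the 10 in every library; Dusp1, with the largest deficit in GIP-GFP against Ngn3-TOMATO; Nr4a1, with the largest excess in Ngn3-TOMATO over Ngn3-negative; and Nr4a2, which alone was highest in GIP-GFP. Each is the 250 bases before the annotated start, 5′ to 3′ on the gene's strand. Capitals mark the core of the CREB element, TGACG on either strand, the full element TGACGTCA, which contains that core, and the TATAAA box on either strand.
Fos, chr12:85473640-85473889, plus strand: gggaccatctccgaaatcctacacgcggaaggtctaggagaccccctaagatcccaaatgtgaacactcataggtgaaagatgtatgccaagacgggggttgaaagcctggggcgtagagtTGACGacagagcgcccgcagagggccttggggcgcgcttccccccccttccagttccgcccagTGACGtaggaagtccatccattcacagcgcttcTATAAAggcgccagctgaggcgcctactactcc
Dusp1, chr17:26508473-26508722, minus strand: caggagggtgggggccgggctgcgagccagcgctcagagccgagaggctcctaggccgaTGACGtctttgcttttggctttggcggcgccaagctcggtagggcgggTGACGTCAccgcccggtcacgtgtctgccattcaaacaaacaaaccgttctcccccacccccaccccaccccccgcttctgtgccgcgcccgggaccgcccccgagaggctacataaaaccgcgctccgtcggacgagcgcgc
Nr4a1, chr15:101266596-101266845, plus strand: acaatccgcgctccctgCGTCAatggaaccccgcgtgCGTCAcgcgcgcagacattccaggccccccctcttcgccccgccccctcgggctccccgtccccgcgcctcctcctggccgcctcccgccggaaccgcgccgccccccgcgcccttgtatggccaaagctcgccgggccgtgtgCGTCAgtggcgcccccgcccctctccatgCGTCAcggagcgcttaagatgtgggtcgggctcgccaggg
Nr4a2, chr2:57124004-57124253, minus strand: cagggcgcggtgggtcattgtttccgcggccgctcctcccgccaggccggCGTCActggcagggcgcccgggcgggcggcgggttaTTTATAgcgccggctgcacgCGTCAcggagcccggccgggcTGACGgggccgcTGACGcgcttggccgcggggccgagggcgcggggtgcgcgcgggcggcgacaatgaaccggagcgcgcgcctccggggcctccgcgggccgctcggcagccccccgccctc

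The core TGACG was found in 7 of the 8 windows, against 17.8% of 32851 promoter windows of the same length over all genes. Nr4a1 and Nr4a2 held 4 copies each, Dusp1 3 and Fos 2, while Fosb, Junb and Atf3 held 1 each and Jun none. The full element TGACGTCA occurred in Dusp1 alone of the 8, at 143 bases before the start, and in 1.55% of all windows. The letters TGACATCA, the variant AP-1 site known from the Jun promoter, were in the Jun window at 45 bases before the start and in 2.93% of all windows. The AP-1 letters TGANTCA and the CArG box that binds serum response factor matched in none of the 8 windows, against 6.75% and 1.47% of all. Egr1, itself induced through serum response factor, is not among the 8, so these counts say nothing of its promoter. The TATAAA box matched in Fos at 33 and in Nr4a2 at 164 bases before the start, the latter on the reverse strand, against 12.4% of all windows. The letters GGGCGG of the SP1 site, made of G and C alone, were likewise in 7 of the 8 windows, against 32.7% of all. The share of G and C was 58.4% in Fos, 68.4% in Dusp1, 74.4% in Nr4a1 and 80% in Nr4a2. The comparisons with all windows were not matched for this share. A match is a description of letters, and regulatory sites farther upstream, where the serum response element of Fos lies, are outside the window. The Atf3 window lies before the start of its transcript uc007ece.1, and that of Nr4a2 before uc008jry.2. The starts of uc011wyt.1 of Atf3 and uc012bvn.1 of Nr4a2, also above 0, are not covered.

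**Figure D1:**
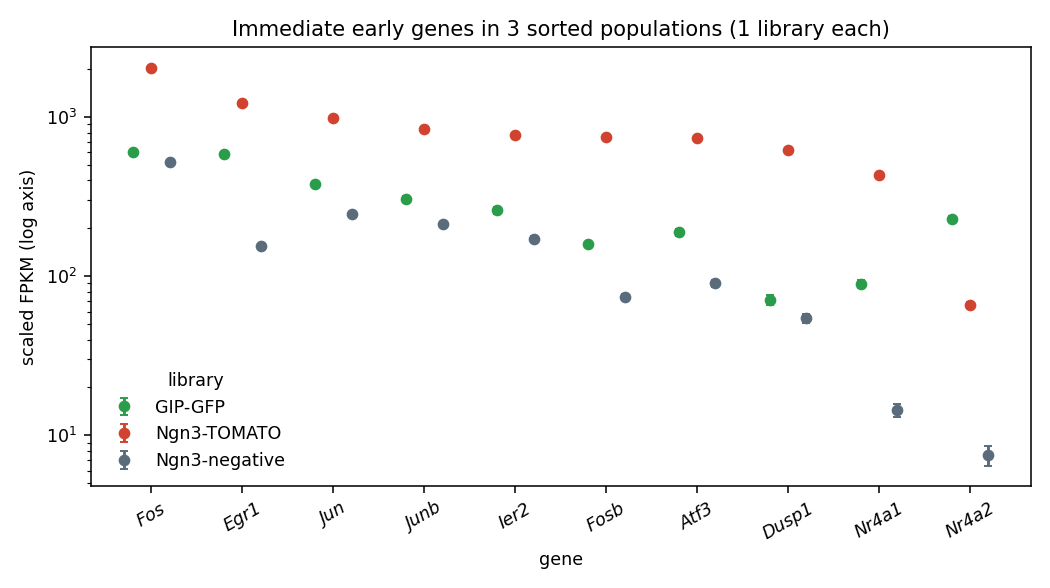
Scaled FPKM (log axis) of the 10 genes in the GIP-GFP, Ngn3-TOMATO and Ngn3-negative libraries, ordered by the Ngn3-TOMATO value, with the deposited limits as bars, most of them smaller than the points. Ngn3-TOMATO is the highest library for 9 genes, and GIP-GFP for Nr4a2 alone, at 230.2 against 65.9 and 7.511.

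The levels of the 10 genes stood in the order Ngn3-TOMATO, GIP-GFP, Ngn3-negative for 9 of the 10, and in the order GIP-GFP, Ngn3-TOMATO, Ngn3-negative for Nr4a2. For Fos, GIP-GFP and Ngn3-negative changed places with equal library totals, at a log2 ratio of -0.02 against 0.20. Summed, they reached 8463 scaled FPKM in Ngn3-TOMATO, or 0.798% of the library, 2877 or 0.276% in GIP-GFP, and 1552 or 0.173% in Ngn3-negative. The median of the 10 was 761, 245 and 122.3 in the same order. For all 10 genes the deposited limits of the 3 libraries were apart from each other in every pair.

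The Fos family supplies the partners that give AP-1 dimers their stable binding. Fos (uc007oha.2, chromosome 12, 85473901 to 85477270) was at 605.3 scaled FPKM (591.5 to 619.2) in GIP-GFP, 2041 (2025 to 2057) in Ngn3-TOMATO and 526.1 (516.8 to 535.4) in Ngn3-negative. It was the 33rd most abundant gene of Ngn3-TOMATO, the 138th of GIP-GFP and the 215th of Ngn3-negative, so it was among the abundant genes of all 3 sorts. Fosb (uc009flk.1, chromosome 7, 19302696 to 19310045), the close relative whose truncated form accumulates on repeated stimulation in neurons, was at 159.5, 751.1 and 74.09. Its shorter listed model, uc012fbb.2, was listed at 0 in every library. The ratio of Fos to Fosb was 7.1 in Ngn3-negative, 3.8 in GIP-GFP and 2.72 in Ngn3-TOMATO, so Fosb made up more of the pair in the reporter libraries.

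Jun and Junb encode the AP-1 subunits that pair with Fos proteins, and Junb is generally the weaker activator. Jun (uc008tsq.2, chromosome 4, 95049036 to 95052222) was at 380.5 (370.9 to 390.0) in GIP-GFP, 990.4 (980.8 to 999.9) in Ngn3-TOMATO and 245.8 (240.4 to 251.2) in Ngn3-negative. Junb, summed over its transcripts (the leading one is uc012ghn.2, chromosome 8, 84976909 to 84978748), was at 307.2, 837.4 and 212.9. The ratio of Jun to Junb stayed between 1.15 and 1.24 over the libraries, a narrower range than that of Fos to Fosb. In GIP-GFP the Junb sum includes 42.43 from uc009mop.1, a model that overlaps a neighbouring gene and was at 0 in the tomato sorts. With uc012ghn.2 alone Junb was at 264.8 there, so the steady proportion depends on counting that model. The Jun locus is overlapped by the annotated antisense gene Junos. Whether the counting used strand is unknown, so reads of that pair cannot be told apart.

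Egr1, a zinc finger factor induced through serum response factor, was the gene second to Fos in both reporter libraries. Its transcript uc008elt.1 (chromosome 18, 34861207 to 34864956) was at 585.5 (573.8 to 597.2) in GIP-GFP, 1220 (1210 to 1231) in Ngn3-TOMATO and 154.3 (150.0 to 158.6) in Ngn3-negative. In GIP-GFP its limits overlapped those of Fos, whereas in Ngn3-negative it was the fifth, behind Fos, Jun, Junb and Ier2. Ier2 (uc009mmr.2, chromosome 8, 84661331 to 84662852), a nuclear protein of the early response, was at 259.8, 770.8 and 171.9. In Ngn3-TOMATO the limits of Ier2 overlapped those of Fosb, and those of Fosb overlapped Atf3, so the order of these neighbours is not set beyond counting error.

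Atf3, a stress-induced member of the ATF/CREB family that can repress its targets as a homodimer, was at 188.6 (179.2 to 197.9) in GIP-GFP, 734.8 (725.2 to 744.5) in Ngn3-TOMATO and 90.22 (85.45 to 95) in Ngn3-negative. Dusp1 (uc008bee.2, chromosome 17, 26505591 to 26508472), which removes the phosphates that activate MAP kinases, was at 71.19 (65.84 to 76.54), 619.0 (609.2 to 628.8) and 54.29 (51.02 to 57.56). Dusp1 was thus the lowest of the 10 in GIP-GFP, ranking 2428th among all genes there, but 162nd in Ngn3-TOMATO.

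The Nr4a genes encode orphan nuclear receptors that respond to cyclic AMP and calcium in endocrine cells. Nr4a1 (uc007xsv.2, chromosome 15, 101266846 to 101274794) was at 89.44 (84.25 to 94.62) in GIP-GFP, 432.3 (425.3 to 439.3) in Ngn3-TOMATO and 14.4 (12.96 to 15.84) in Ngn3-negative. Nr4a2, known from the development of dopamine neurons, was, summed over its transcripts (the leading one is uc008jry.2, chromosome 2, 57107226 to 57124003), at 230.2 (222.4 to 238.0), 65.9 (63.08 to 68.73) and 7.511 (6.421 to 8.602). Nr4a2 was the least abundant of the 10 in both tomato sorts and the sixth in GIP-GFP. The ratio of Nr4a1 to Nr4a2 was 6.56 in Ngn3-TOMATO, 1.92 in Ngn3-negative and 0.388 in GIP-GFP, so the leading member of the pair was Nr4a2 in GIP-GFP and Nr4a1 in the other libraries.

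**Figure D2:**
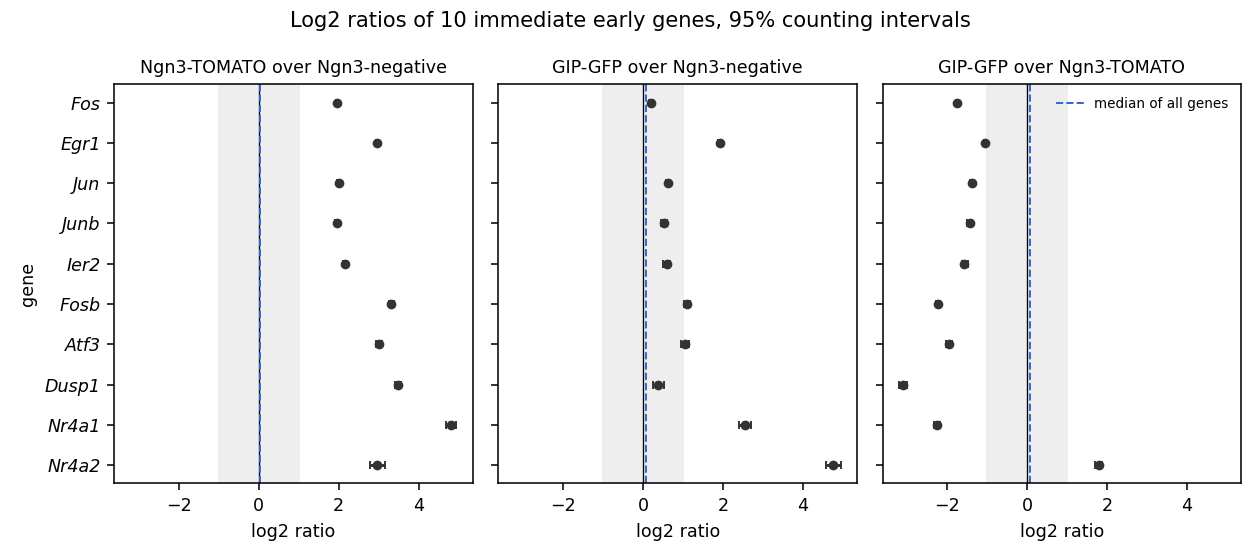
Log2 ratio of each of the 10 genes in the 3 comparisons, with 95% counting intervals, the band within 2-fold in grey and the median of all genes as a dashed line. Every point lies right of the band for Ngn3-TOMATO over Ngn3-negative, 5 do for GIP-GFP over Ngn3-negative, and for GIP-GFP over Ngn3-TOMATO 9 lie left of it and Nr4a2 right.

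The comparison of Ngn3-TOMATO with Ngn3-negative sets the library of the Neurogenin 3 lineage beside that of the tomato-negative cells. The 10 genes were without exception at least 2-fold higher in Ngn3-TOMATO, against 19.5% of the 13226 genes compared, and 8 of 10 were at least 4-fold higher, against 8.97%. None was 2-fold or 4-fold lower, against 10.1% and 1.91% of all genes. With equal totals the shares of all genes became 16.8% higher and 14.9% lower, and the 10 genes stayed at least 2-fold higher, but those past 4-fold went from 8 to 6, with Ier2 at 1.91 and Jun at 1.76. Jun was also just under 4-fold, at 1.99, with the median ratio and with a pseudocount of 5. Ratios are log2 of values after a pseudocount of 1, and a gene counts as higher past 2-fold. The median log2 ratio of the 10 was 2.97 beside 0.03 for all genes. Nr4a1 had the highest, 4.81 (4.68 to 4.95), a 28.1-fold excess that 99.2% of genes fell below. Dusp1 followed with 3.49 (3.40 to 3.57) and Fosb with 3.32 (3.27 to 3.38). Atf3, Egr1 and Nr4a2 stood close together at 3.01, 2.97 and 2.97. The smallest were Ier2 at 2.16, Jun at 2.01, Junb at 1.97 and Fos at 1.95 (1.93 to 1.98), which are also the 4 most abundant of the 10 in Ngn3-negative.

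Goblet and Paneth markers were higher in Ngn3-TOMATO too, with medians of 2.34 over 7 genes and 2.44 over 6, and the enteroendocrine markers had a median of 5.42. The part of these cells in the immediate early values was not tested. Enterocyte markers had a median of -2.51. Of 7 T cell markers 5 were at least 2-fold lower, against 10.1% of all genes, and none was above 0 on the log2 scale.

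The comparison of GIP-GFP with Ngn3-negative sets the GIP sort against the tomato-negative cells of the other cross. All 10 genes were above 0 on the log2 scale, but only 5 were at least 2-fold higher, against 21.2% of 13324 genes, and the median of the 10 was 0.84 beside 0.07. At 4-fold there were 2, Nr4a2 and Nr4a1, against 10.2%, and none was 2-fold or 4-fold lower, against 13.9% and 2.79%. Nr4a2 led with 4.76 (4.58 to 4.95), a 27.2-fold excess. It was followed by Nr4a1 at 2.55 (2.40 to 2.71) and Egr1 at 1.92 (1.87 to 1.96), with Fosb at 1.10 (1.03 to 1.17) and Atf3 at 1.06 (0.95 to 1.16) just past the line. Jun, Ier2, Junb and Dusp1 lay between 0.38 and 0.63. Fos was at 0.20 (0.16 to 0.24), which became -0.02 under scaling to equal library totals. Gip alone took 23.3% of the GIP-GFP total, and with equal totals Fosb and Atf3 came to 0.88 and 0.84 and 3 genes were past 2-fold, against 18.7% of all genes higher and 18.1% lower at that scaling. The direction for Fos is therefore not set. Enteroendocrine markers were at least 2-fold higher in GIP-GFP for 10 of 10 genes, with a median of 6.6. Markers of T cells were so for 3 of 7, with a median of 1.0. Goblet markers were at least 2-fold lower for 8 of 8 genes, enterocyte markers for 8 of 9, and cycling and stem markers for 6 of 6. Tuft markers were lower for 5 of 6 and Paneth markers for 4 of 6. The part of all these cells was not tested.

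The comparison of GIP-GFP with Ngn3-TOMATO sets the GIP sort against the whole lineage, and it shares its libraries with the comparisons above. Of the 10 genes 9 were at least 2-fold lower in GIP-GFP, against 8.84% of 13553 genes, and 1 was at least 2-fold higher, against 8.12%. At 4-fold, 3 were lower, against 3.22%, and none higher, against 2.08%. The median of the 10 was -1.66 beside 0.08. Dusp1 was lowest, at -3.10 (-3.21 to -3.00), then Nr4a1 at -2.26, Fosb at -2.23 and Atf3 at -1.96. Fos was at -1.75, Ier2 at -1.57, Junb at -1.44 and Jun at -1.38. Egr1 was nearest to the line at -1.06 (-1.09 to -1.03). Nr4a2 was at 1.79 (1.71 to 1.87), 3.46-fold higher in GIP-GFP. Markers of T cells and intraepithelial lymphocytes were likewise at least 2-fold higher in GIP-GFP for 6 of 7 genes, with a median of 2.14. Enteroendocrine markers were at least 2-fold higher for 6 of 10 genes and lower for 1, with a median of 1.12. The part of either cell type in the Nr4a2 value was not tested. Goblet and Paneth markers were lower in GIP-GFP for 7 of 7 and 6 of 6 genes, with medians of -4.31 and -3.68, and tuft cell markers for 6 of 6, with a median of -2.48. Enterocyte markers were above 0 on the log2 scale for 8 of 8 genes, 1 of them at least 2-fold higher, with a median of 0.36. The part of those cells was not tested.

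**Figure D3:**
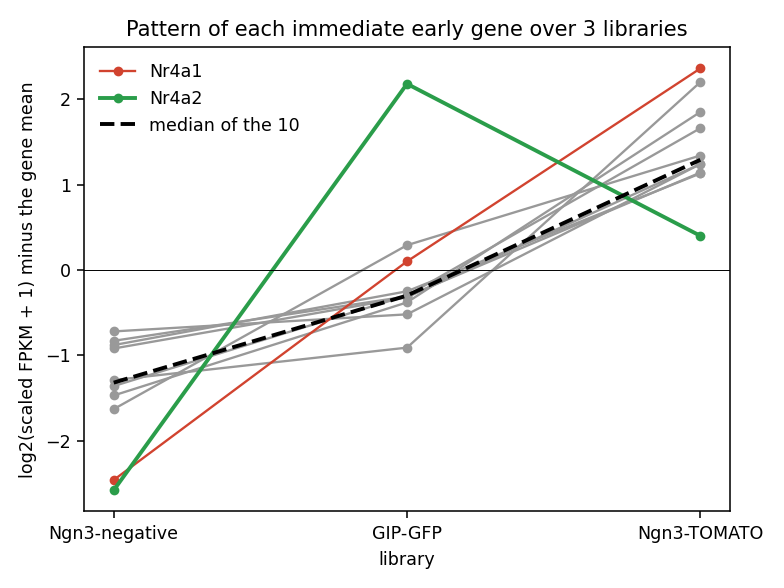
Log2(scaled FPKM + 1) of each of the 10 genes minus its mean over the 3 libraries, by library, with Nr4a2 in green, Nr4a1 in red, the other 8 in grey and the median of the 10 dashed. Nr4a2 peaks in GIP-GFP at 2.18, while the other 9 lie between -0.91 and 0.29 there and peak in Ngn3-TOMATO.

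Over the 3 libraries the centred profile of Atf3 lay nearest to the median of the 10, at a distance of 0.365 log2 units, and that of Nr4a2 farthest, at 2.928, followed by Nr4a1 at 1.606 and Dusp1 at 1.087. Among the 4495 genes outside the list at 50 scaled FPKM or more in a library, the profiles nearest to this median were those of Parm1, at a distance of 0.204, the transcriptional inhibitor Id2 at 0.242, the protease gene Bace2 at 0.274 and the small Maf factor gene Maff at 0.289, then S100a13, Tor3a, Pkdcc, Ppic, the Notch ligand gene Dll4 and Lpcat4, up to 0.365. Id2 was at 573.6 in Ngn3-TOMATO, 207.9 in GIP-GFP and 88.48 in Ngn3-negative. Maff, itself an early response gene, was at 102.6, 27.68 and 16.07 in the same order. The profile of Nr4a2, compared in the same way after its values were seen, was nearest to those of Bambi (0.102), a pseudoreceptor of the TGF-beta family, Map2, the long-chain fatty acid receptor gene Ffar4 (0.182) and the scavenger receptor gene Scarb1 (0.221), with Egr2 the eighth at 0.28. Ffar4 was at 142.4 in GIP-GFP against 48.46 and 4.945 in the tomato and negative sorts. With 3 libraries such likeness is a description and rests on few points.

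Other early response genes, listed by name, were more mixed. Of 36 measured, 22 exceeded Ngn3-negative by 2-fold or more in Ngn3-TOMATO and 2 lay as far below it, against 19.5% and 10.1% of all genes, and the median was 1.23. Klf2, a zinc finger factor, was at 83.69 against 4.646, Egr3 at 21.4 against 0.7087, the antiproliferative gene Btg2 at 711.3 against 96.53 and the messenger RNA decay factor gene Zfp36 at 1248 against 380.5. The 2 lower were Sgk1, the kinase induced by serum and glucocorticoids, at 30.27 against 138.7, and Myc at 32.94 against 66.94. In GIP-GFP over Ngn3-negative the median was 0.37, with 10 of 34 past 2-fold upward and 6 downward, against 21.2% and 13.9% of all genes. Those downward were Sgk1, Zfp36l1, Klf4, Myc, Ier5 and Plk3. In GIP-GFP over Ngn3-TOMATO 19 of 36 were at least 2-fold lower and 2 higher, against 8.84% and 8.12% of all genes. Those 2, singled out after their values were seen, were Egr2 and Phlda1. Egr2 was at 104.1 in GIP-GFP against 22.55 in Ngn3-TOMATO and 2.128 in Ngn3-negative, and Phlda1 at 375.6 against 82.49 and 25.42. They thus had the order of libraries that Nr4a2 had.

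Among the other MAP kinase phosphatases, Ngn3-TOMATO exceeded Ngn3-negative by a median log2 ratio of 2.26. Of these, 6 of 8 were past 2-fold upward and none downward, against 19.5% and 10.1% of all genes. Dusp2, of the nuclear inducible type to which Dusp1 belongs, was at 72.81 against 1.38, a log2 ratio of 4.95, and at 4.228 in GIP-GFP. Dusp4 was at 51.65 against 5.179. Dusp5, which acts on ERK in the nucleus, was at 206.4 against 30.6, and at 191 in GIP-GFP. In GIP-GFP over Ngn3-negative 6 of 8 were also higher and none lower, against 21.2% and 13.9% of all genes, with a median of 1.66. Between the reporter libraries only Dusp2 was past 2-fold, lower in GIP-GFP at -3.82, against 8.84% of all genes lower and 8.12% higher. The median was -0.09, and Dusp5 was at -0.11.

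The remaining AP-1 family genes were mixed. In Ngn3-TOMATO over Ngn3-negative 2 of 10 were higher, Jund at 336.8 against 116.7 and Atf2 at 74.96 against 35.96, and those lower included the large Maf factor gene Maf (28.11 against 132.8) and Batf2 (9.278 against 34.34). Mafk, a small Maf partner, was at 111.2 against 58.82. Fosl1 and Batf3 were listed at 0 in all libraries. Upstream of the immediate early genes, the kinases, activators and repressors had a median of 0.21 in the same comparison, and 9 of 33 were past 2-fold upward and none downward. Among all genes 19.5% were past 2-fold upward and 10.1% downward. Of the abundant members, the ERK gene Mapk3 was at 0.43 and Rps6ka1, a kinase of the RSK type, at -0.23, whereas the p38 kinase gene Mapk14 was at 1.39 (177.2 against 66.97). The members farthest above were Spry4, a feedback inhibitor of growth factor signaling (6.104 against 0.2865), and Rps6ka2 (7.772 against 0.6212), both at low levels. In GIP-GFP over Ngn3-negative 6 of 32 were past 2-fold upward and 4 downward, around a median of 0.09, against 21.2% and 13.9% of all genes. The higher were Prkacb, a catalytic subunit of protein kinase A (71.86 against 7.824), Rps6ka2 (10.03 against 0.6212), Braf (31.17 against 7.68), Crtc1, Elk1 and Elk3, which was listed at 0 in Ngn3-negative. The lower were Spry1, Camk4, Map2k2 and Spred1, at log2 ratios from -1.30 to -1.01.

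**Figure D4:**
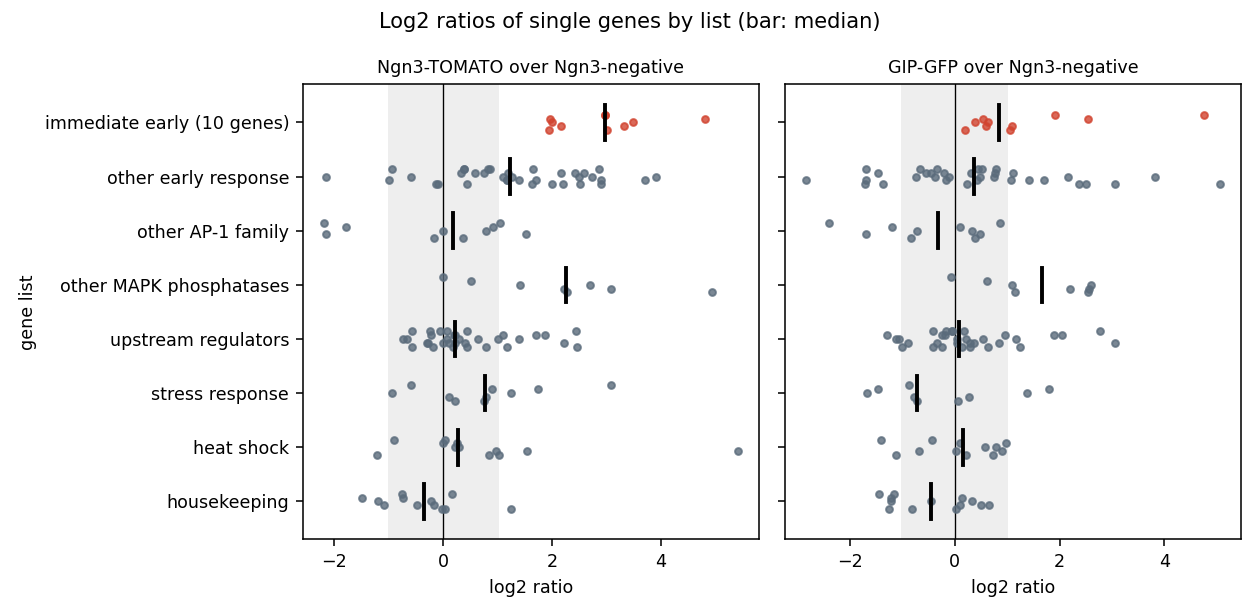
Log2 ratios of single genes by list for Ngn3-TOMATO over Ngn3-negative (left) and GIP-GFP over Ngn3-negative (right), with each list's median as a bar and the band within 2-fold in grey. The medians of the 10 immediate early genes are 2.97 and 0.84, and those of heat shock genes 0.27 and 0.15.

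The stress factors that act beside Atf3 stood at a median of 0.77 in Ngn3-TOMATO over Ngn3-negative, and 3 of 10 were past 2-fold upward and none downward, beside 19.5% and 10.1% of all genes. These were Ppp1r15a, which restores translation after stress (143.8 against 16.13), Chac1 (5.474 against 0.9326) and Asns, the asparagine synthetase (114.1 against 47.25). Atf4, the central factor of the integrated stress response, was at 492.9 against 290.8, within 2-fold. In GIP-GFP over Ngn3-negative the median of this list was -0.72, with 2 of 9 past 2-fold upward, Ppp1r15a and Sesn2, and 2 downward, Trib3 and Cebpb, against 21.2% and 13.9% of all genes. For heat shock genes the median was 0.27, and 3 of 12 were past 2-fold upward and 1 downward, against 19.5% and 10.1% of all genes. The higher were Hspb1 (57.89 against 0.3649), Dnajb1 (234.1 against 79.47) and Hspa1a (24.38 against 11.56), and the lower was the mitochondrial chaperone gene Hspd1. The abundant chaperone genes Hsp90ab1 and Hspa5 were at log2 ratios of -0.01 and 0.84. In GIP-GFP over Ngn3-negative no heat shock gene was 2-fold higher and 2 of 12, Hspe1 and Hspd1, were lower. The shares of all genes were 21.2% and 13.9%, and the median of the list was 0.15. Housekeeping genes had medians of -0.35 and -0.45 in these comparisons, with Actb at -0.03 and -0.81 and B2m at -1.49 and -1.45. Gapdh was listed between 0.408 and 0.906 in the 3 libraries, although every cell uses it, so a low listed value cannot be read as absence in these files.

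**Figure D5:**
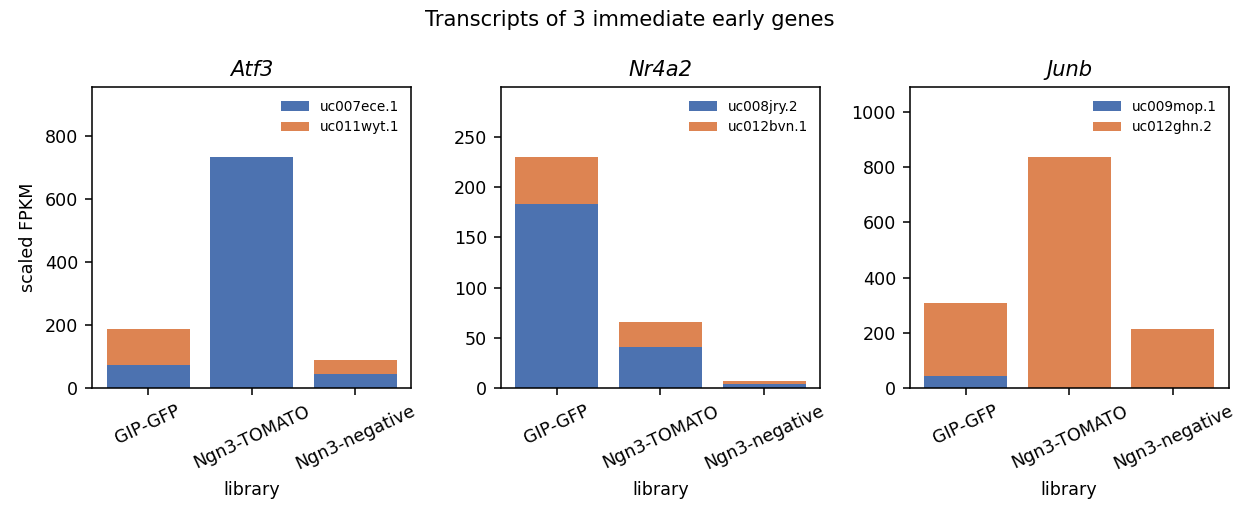
Scaled FPKM of the transcripts above 0 of Atf3, Nr4a2 and Junb, stacked by library. The Atf3 transcript from the upstream start (uc011wyt.1) is listed at 116.4 in GIP-GFP and 45.31 in Ngn3-negative, and at 0 in Ngn3-TOMATO.

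Of 18 listed transcripts of the 10 genes, 13 were above 0 in a library, and 7 genes had a single such transcript. Atf3 divided differently by library. Its transcript uc007ece.1 (chromosome 1, 191170297 to 191183333, minus strand) took 100% of the gene in Ngn3-TOMATO, 49.8% in Ngn3-negative and 38.3% in GIP-GFP. The rest went to uc011wyt.1, which ends at the same base and starts farther upstream at 191218039. The total for Atf3 does not depend on this division, but with uc007ece.1 alone its log2 ratio of GIP-GFP to Ngn3-TOMATO went from -1.96 to -3.33, and for Ngn3-TOMATO over Ngn3-negative from 3.01 to 4.0. For GIP-GFP over Ngn3-negative it went from 1.06 to 0.67, which is under 2-fold. Nr4a2 was divided between uc008jry.2 and uc012bvn.1, which spans less of the locus (chromosome 2, 57107226 to 57115038), the first holding 79.6% in GIP-GFP but 62.2% in Ngn3-TOMATO and 62.4% in Ngn3-negative. In Junb a spliced model whose far end overlaps the neighbouring gene Prdx2, uc009mop.1, held 13.8% in GIP-GFP and was listed at 0 in the tomato sorts. With uc012ghn.2 alone the log2 ratio of Junb went from 0.53 to 0.31 for GIP-GFP over Ngn3-negative. For GIP-GFP over Ngn3-TOMATO it went from -1.44 to -1.66. Shares between overlapping transcripts are estimates of read assignment, and how firmly these reads separate the models was not tested.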

How the data were processed

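Polyadenylated RNA of 3 sorted populations was sequenced, with 1 pooled library per group. Per the submitters' processing notes, FastQC, TopHat 1.5.0 and Cufflinks were used with genome build mm10. The version of Cufflinks was not among the sources used here. The deposited tables hold, per the file headers and for each of 59120 UCSC transcripts, the coverage signal (mean read depth per base), the FPKM and its limits. The deposited FPKM sum to about 10120000000 or more per library, so the library term is not the usual one and ratios between libraries are as deposited. Gene symbols came from GENCODE M21, by matching transcripts on ends, length and overlap, strand aside, which named 51579. Locus starts count from 0 and were raised by 1. Transcripts under 200 bases and mitochondrial ones were left out, and those of status HIDATA or FAIL (0 to 9 and 169 to 606 per library) were treated as missing; all transcripts of the 10 genes had status OK. Sums per symbol were divided by 8098, which makes the mean total 1000000. Genes at 1 scaled FPKM or more in 1 of the 2 libraries were compared with a pseudocount of 1. The fold scale understates low genes. Intervals take the deposited limits as 2 standard errors, combined over transcripts as if independent. The calculation was tested on simulated data, with Python 3.11.15, numpy 2.4.6 and pandas 2.3.3. The simulation drew both libraries of a comparison from the same levels, apart from set folds. Scaling between libraries and division among transcripts were therefore not tested by it. The genes and lists were chosen with earlier results of these data known. From each list the 2 most abundant genes and the 2 with the largest absolute ratio of Ngn3-TOMATO to Ngn3-negative were named, others after their values were seen. Some genes that this rule names are not reported here. Settings tried were 9 alternatives planned and 1 added after seeing the files.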

Additional observations from a re-analysis of the deposited data

How the results depend on the processing

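With 1 library per group, no setting can show the spread between mice. All 10 genes stayed at least 2-fold higher in Ngn3-TOMATO than in Ngn3-negative under the 10 alternatives run, and 9 stayed at least 2-fold lower and Nr4a2 higher in GIP-GFP than in Ngn3-TOMATO. The median log2 ratio for Ngn3-TOMATO over Ngn3-negative was 2.72 with a pseudocount of 5, 2.73 with equal totals over genes and 3.11 with equal totals without the 20 most abundant genes, against 2.97 as reported. For GIP-GFP over Ngn3-negative, reported as 0.84, it was 0.63 with equal totals, 1.01 with equal totals without the 20 most abundant genes and 0.65 with the most abundant transcript alone. For GIP-GFP over Ngn3-TOMATO it was -1.71 with the median ratio, against -1.66. For Ngn3-TOMATO over Ngn3-negative the number past 4-fold, 8 as reported, was 6 with equal totals, 7 with the median ratio or a pseudocount of 5, and 10 with equal totals without the 20 most abundant genes. Equal totals also lowered the genes at least 2-fold higher in GIP-GFP than in Ngn3-negative from 5 to 3 and turned Fos from 0.20 to -0.02. These scalings moved the median of all genes as well, to -0.20 and 0.17 in the first comparison and to -0.14 and 0.24 in the second, and relative to it the 10 genes' median stayed at 2.94 and at 0.76 or 0.77. Of 300 single values, 58 moved past their counting interval and 1 changed sign. Keeping status FAIL as listed was added after seeing the data. No paired analysis was possible because each group has 1 library.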
